A study of Mus musculus with 6 samples.

Results

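The genes described here encode the proteins of the cytoplasmic ribosome, the particle that translates mRNA. They were taken by symbol from the deposited expression tables as every gene whose name begins with Rpl or Rps followed by a number, by "p" for the acidic stalk proteins or by "a" for Rpsa, leaving out 6 symbols marked as pseudogenes with -ps and 10 Rps6k kinases. The rule gave 86 of 23284 listed genes, 46 for proteins of the large subunit, 31 for proteins of the small subunit and 9 for paralogs and like-named genes. Of these, 83 reached a mean of 1 FPKM over the 6 libraries and were tested, among 11703 such genes, FPKM being the number of sequenced fragments scaled by transcript length and library size. The members lie on 19 chromosomes.

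A ribosome is built from a small subunit, which holds the mRNA and reads its codons, and a large subunit, which joins amino acids and passes the growing chain through its exit tunnel. Most of its proteins are present in a single copy per particle, so the cell makes them in matched amounts, and growing cells, leukemia cells among them, spend much of their mRNA on them. The mRNAs carry a pyrimidine tract at the 5′ end (the TOP motif), through which mTORC1 and the RNA-binding protein LARP1 set how much they are translated and how long they are kept, while MYC is known to drive transcription of many ribosomal protein genes and of the factors that assemble the particle.

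RNA-Seq was performed on C1498 cells, a murine acute myeloid leukemia (AML) line, isolated by sorting on day 21 after injection from marrow of 3 mice given cytarabine and 3 control mice. Cytarabine is a nucleoside analog that stops DNA synthesis and is a mainstay of AML chemotherapy. All the mice had received C1498-EGFP, a single clone made by retroviral transduction with GFP, intravenously into C57BL/6J hosts (female and 8 to 10 weeks old unless the methods say otherwise), so hosts with an intact immune system carried the same clone in both groups. Treated mice in the imaging experiments received 20 μg cytarabine in PBS intraperitoneally on days 19 and 20, and the dose is not stated separately for the RNA-Seq mice. The labels call the control mice both PBS-treated and untreated, and the cells were gated as GFP+ CD49b+. The libraries, 1 per mouse, are called cytarabine 1 to 3 and control 1 to 3, and the comparison asked which transcripts differed in leukemia cells that remained after chemotherapy.

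Depth, read from the step that 1 fragment makes in low FPKM values, was 11490000 to 18870000 reads per library, with cytarabine 2 the deepest. Ptprc, the leukocyte marker CD45, was at 284 to 386 FPKM. Itga2, which encodes the sort marker CD49b, was at 8.11, 7.79 and 7.88 FPKM in cytarabine 1 to 3. In control 1 to 3 it was at 10.6, 13.3 and 12.8 FPKM, so the groups did not overlap. Most of the myeloid list was low: Kit, Cd33, Cebpa, Csf3r, Itgam and Cd34 reached at most 1.59, 2.12, 2.18, 3.83, 4.76 and 7.72 FPKM, and Mpo, the myeloperoxidase of granules, was at 2.33 to 71.1 FPKM. Of the 8 tested genes of the myeloid and sort list, 3 were lower at an unadjusted p under 0.05 in limma (9.81% of all tested genes) and none was higher. The groups did not overlap for 4 that lay below the controls and 1 above. Of the T and NK cell list, Cd3e and Cd3g, subunits of the T cell receptor complex, were at 130 to 199 and 449 to 652 FPKM. Cd4, Cd8a and Ncr1 were at no more than 0.89, 0.38 and 0.38 FPKM. Klrb1c, Gzma and Prf1 were at 3.57 to 5.07, 2.56 to 7.49 and 1.197 to 3.79 FPKM with cytarabine. In the controls they were at 1.82 to 2.995, 1.03 to 1.56 and 0.45 to 1.001 FPKM, without overlap. Of the 5 tested genes of this list, 2 were higher at an unadjusted p under 0.05 in limma (7.6% of all tested genes). None was lower, and 3 lay above the controls without overlap (10.9% of all tested genes). Transcripts of other tissues were present in some libraries. The summed level of 9 colon epithelium markers was 303, 3839 and 4162 FPKM in cytarabine 1 to 3 and 1812, 20.3 and 21.8 FPKM in control 1 to 3. The sum of 9 heart markers was 7.95, 22.5 and 789 FPKM in the cytarabine libraries and 3022, 628 and 61.5 FPKM in the controls. The sum of 9 neutrophil markers was 1515, 202 and 192 FPKM with cytarabine and 1446, 2053 and 2012 FPKM in the controls. With cytarabine 7 of these 9 were lower at an unadjusted p under 0.05, against 9.81% of all tested genes. No colon or heart marker was at 0 in all libraries, and 1 of each list was under 1 FPKM in every library. The results are also given within libraries low or high in colon markers and from a fit that includes scores of both tissues, and the part of neutrophil RNA in them was not tested. In bulk samples, fewer cells of a type and less RNA per cell cannot be told apart.

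Ribosomal protein mRNAs were among the most abundant transcripts of the sorted cells. Of the 86 members, 72 had a mean between 500 and 5000 FPKM, and 62 of the 100 most abundant genes in the tables were members. The median member was at 1741 FPKM against 14.1 FPKM for all tested genes. FPKM is scaled by transcript length, which makes the levels of different genes roughly comparable. Reads shared with copies elsewhere in the genome, described below, can move a row, so the order is approximate. Rplp1, an acidic protein of the stalk that recruits elongation factors, was the most abundant member, with a mean of 4702 FPKM. Rps18 followed at 4185 FPKM, Rps2 at 3603, Rps12 at 3427, Rpl35 at 3374 and Rpl41 at 3318 FPKM. Neighbours in this order overlapped over the libraries: Rplp1 ranged from 4244 to 5247 FPKM and Rps18 from 3957 to 4578 FPKM.

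**Figure D1:**
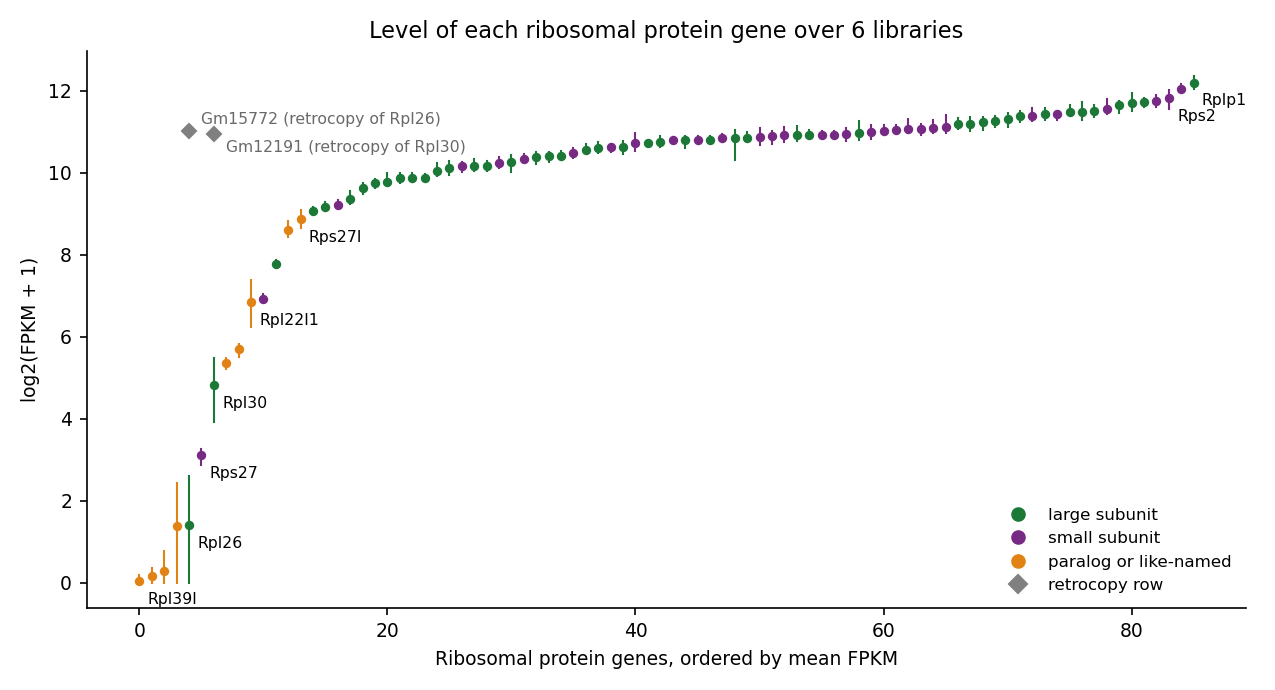
Mean level of each of the 86 ribosomal protein genes as log2(FPKM + 1), ordered from lowest to highest, with vertical lines from the lowest to the highest of the 6 libraries and colors for subunit. Most genes form a plateau between 500 and 5000 FPKM; Rpl26 and Rpl30 sit far below it, while the rows of their retrocopies Gm15772 and Gm12191 (gray diamonds) lie on the plateau.

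The 14 members under 500 FPKM were the 9 paralogs and like-named genes with Rpl26, Rps27, Rpl30, Rps15a and Rpl22. The sum of all members was 20.8%, 23.3% and 21.0% of the summed FPKM of all genes in cytarabine 1 to 3 and 21.5%, 22.2% and 22.6% in control 1 to 3. The means were 21.7% ± 1.42 (SD, n = 3) and 22.1% ± 0.562 (SD, n = 3), and the groups overlapped. The difference of -0.39 percentage points was smaller than the spread among the cytarabine libraries. Leaving out 768 mitochondrial, microRNA and small nucleolar RNA genes from the total gave a difference of -0.82 points, and leaving out the colon, heart and smooth muscle markers gave -0.34 points. The ratio of the large to the small subunit sum was between 1.29 and 1.33 in every library.

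This family is known for pyrimidine tracts at the transcription start, and the sequences around 6 starts are given as examples among the named genes. They come from abundant members (Rpl35, Rps18), from a member with a long run (Rpl7a) and from members that stood at either end of the comparison (Rps2, Rps27l, Rpl22l1). Each line is the transcript strand from 50 bases before the RefSeq start to 20 bases from it, in build GRCm38.p6, with the longest run of C and T in capitals.
Rpl7a, chr2:26910757-26910826, plus strand: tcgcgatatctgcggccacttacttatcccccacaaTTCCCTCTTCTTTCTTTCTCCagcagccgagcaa
Rpl35, chr2:39005112-39005181, minus strand: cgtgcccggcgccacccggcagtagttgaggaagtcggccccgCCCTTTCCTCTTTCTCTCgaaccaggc
Rps18, chr17:33955646-33955715, minus strand: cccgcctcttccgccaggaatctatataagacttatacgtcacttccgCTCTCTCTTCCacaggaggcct
Rps2, chr17:24720013-24720082, plus strand: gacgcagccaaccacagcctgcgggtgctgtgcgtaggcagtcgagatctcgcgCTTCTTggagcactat
Rps27l, chr9:66946036-66946105, plus strand: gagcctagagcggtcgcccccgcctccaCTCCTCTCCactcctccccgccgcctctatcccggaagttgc
Rpl22l1, chr3:28805458-28805527, plus strand: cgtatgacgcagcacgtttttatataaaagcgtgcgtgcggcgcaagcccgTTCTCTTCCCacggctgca

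The run was 21 bases long in Rpl7a, 18 in Rpl35, 11 in Rps18, 10 in Rpl22l1, 9 in Rps27l and 6 in Rps2. Relative to the start base it began at -14 in Rpl7a, -7 in Rpl35, -2 in Rps18, 1 in Rpl22l1, -22 in Rps27l and 4 in Rps2. The longest run in a window need not be a TOP motif, and that of Rps27l ended before the start. Promoter windows from 250 bases before to 50 after the start were found in RefSeq for 65 of the 86 members and 27025 genes in all. A run of at least 8 pyrimidines beginning with C within 20 bases of the start was present in 46.2% of the members and in 14.5% of all genes. The ETS family core CCGGAAG, searched on both strands, was in 40.0% of the members and 9.93% of all genes, and the YY1 core AAGATGGC was in 9.23% and 3.19%. The GC box GGGCGG, which SP factors bind, was in 63.1% of the members and 38.2% of all genes, whereas the TATA box TATAAA was in 10.8% and 15.7%. These shares describe letters in a window and not binding.

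Several members could not be read without their retrocopies, the intronless copies that ribosomal protein mRNAs have left across the genome. Of 85 members with annotated transcripts of at least 75 bases, the read length, 80 shared at least 1 stretch of 75 bases with a transcript of another gene, and these other genes numbered 727, of which 683 were pseudogenes. The median member shared 26.7% of its stretches, 19 members shared at least 50%, and Rpl36a shared 84.6%. The stretches of a member were pooled over all its annotated protein-coding transcripts. Transcripts that add stretches of their own lower the share, so the shares do not rank the members. Rps3 shared none. Only 28 of the 727 genes were listed in the deposited tables.

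The clearest cases were Rpl26 and Rpl30. Rpl26 encodes a protein at the mouth of the exit tunnel and lies at chr11:68901583-68906989 (GRCm38). Its row held 4.75, 0 and 0 FPKM in cytarabine 1 to 3 and 0, 0 and 5.02 FPKM in control 1 to 3, while Gm15772, a processed pseudogene at chr5:3236431-3236868 that shares more of its stretches than any other gene, was listed at 1874, 2204 and 2083 FPKM with cytarabine and 2309, 1917 and 2106 FPKM in the controls. Rpl30, a large subunit protein at chr15:34440505-34443640, was at 14.0 to 43.8 FPKM, and its processed pseudogene Gm12191 at chr11:49678710-49679057 was at 1903 to 2071 FPKM. Added to their retrocopies, Rpl26 reached 1878 to 2309 FPKM and Rpl30 reached 1917 to 2095 FPKM, within the range of the plateau. The rows of different length cannot be added exactly in FPKM, so these sums are approximate. Rps27, a small subunit protein, was at 7.68 FPKM on average and shared 42.4% of its stretches with Rps27rt, which was not analysed here.

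Rpl34, a large subunit protein at chr3:130726831-130730398, shared 168 of its 2012 stretches (8.35%) with Rpl34-ps1, which is 354 bases long. Its own row was at 1655, 1259 and 1888 FPKM in cytarabine 1 to 3 and 2013, 2088 and 2113 FPKM in control 1 to 3. The processed pseudogene Rpl34-ps1, at chr6:71124610-71124963, was at 310, 916 and 44.0 FPKM with cytarabine and 54.3, 143 and 31.6 FPKM in the controls. The library with the lowest Rpl34, cytarabine 2, was the one with the highest Rpl34-ps1. Their sum was 1966, 2176 and 1932 FPKM with cytarabine and 2067, 2231 and 2144 FPKM in the controls, and these groups overlap. Whether reads moved between these rows was not tested.

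**Figure D2:**
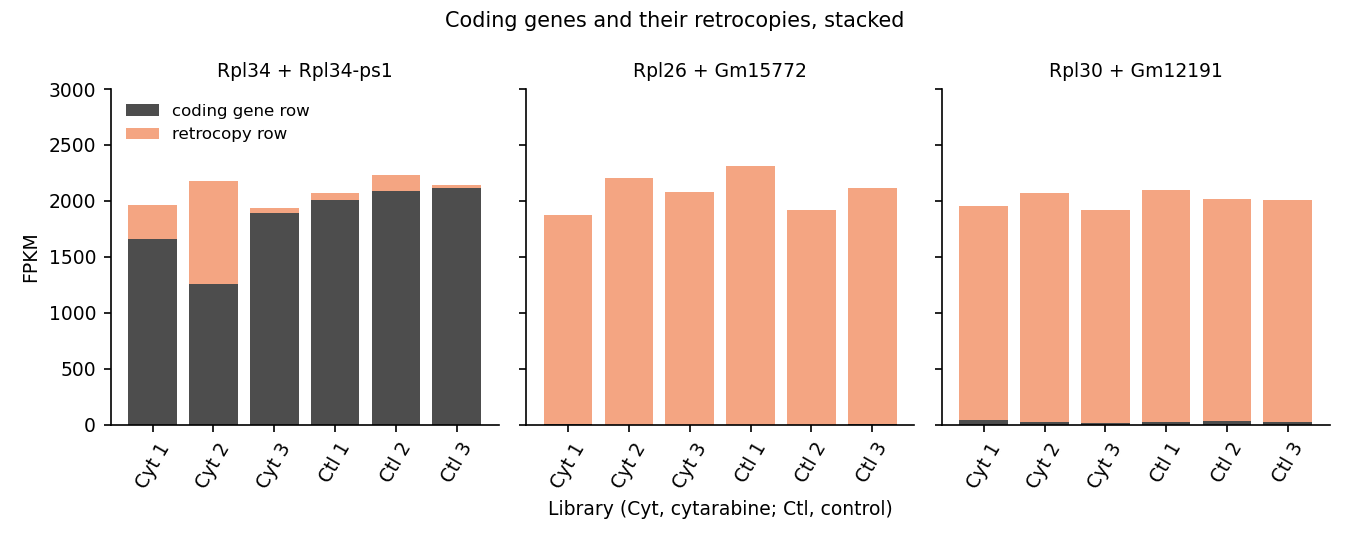
FPKM of 3 coding genes (dark) stacked with the row of the retrocopy that shares the most 75-base stretches with each (light), per library. Nearly all of the Rpl26 and Rpl30 signal stands in the retrocopy row. Rpl34-ps1 is highest in cytarabine 2, at 916 FPKM, where the Rpl34 row is lowest.

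To ask whether ribosomal protein mRNAs differed after chemotherapy, each gene was tested with limma on log2(FPKM + 1) over all 11703 genes. No member passed an adjusted p of 0.05, and neither did any of the 11703 genes (0%). The smallest adjusted p of a member was 0.154. At an unadjusted p under 0.05, 7 of the 83 tested members (8.43%) were called, against 17.4% of all tested genes. One member was higher with cytarabine, where 7.6% of all genes were, and 6 members (7.23%) were lower, where 9.81% of all genes were. The 2 groups of libraries did not overlap for 15 members (18.1%), against 23.8% of all genes, with 2 members above the controls (10.9% of all genes) and 13 below (12.9%). In both directions together, both shares were under the background. The split between directions moved with the scaling, to 2 higher and 1 lower with quantile normalization (6.15% and 10.4% of all genes). It was 4 higher and 3 lower when every library was scaled to the same sum of ribosomal protein FPKM (8.69% and 4.72%). That last scaling centers the members near 0 by construction, so its split cannot tell the direction of the family. With no filter on low values 1 was higher and none lower (6.31% and 6.62% of all genes).

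The changes of the family were small. The median log2 fold change (cytarabine minus control) of the members was -0.037, against -0.002 for all tested genes. It was 0.01 when the ribosomal protein sum was made equal, which sets it near 0 by construction. Of the members, 58 had a negative and 25 a positive value (69.9% negative, against 50.3% of all tested genes). The split was 44 negative to 39 positive with quantile normalization and 43 to 40 without cytarabine 3. It was 38 to 45 with the equal ribosomal protein sum, where a near-even split also follows by construction. The change was within ±0.2 for 76 members (91.6%), against 53.9% of all tested genes and 56.7% of the 104 other genes averaging 500 FPKM or more. No member passed ±0.5, which 16.7% of all genes did. The median SD within groups was 0.102 on the log2 scale for members, 0.143 for the other genes of at least 500 FPKM and 0.151 for all tested genes, and 24 of those 104 abundant genes (23.1%) were called. The half-width of the 95% interval of a member's log2 fold change had a median of 0.21, so a typical member needed a change of about this size to reach an unadjusted p of 0.05.

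**Figure D3:**
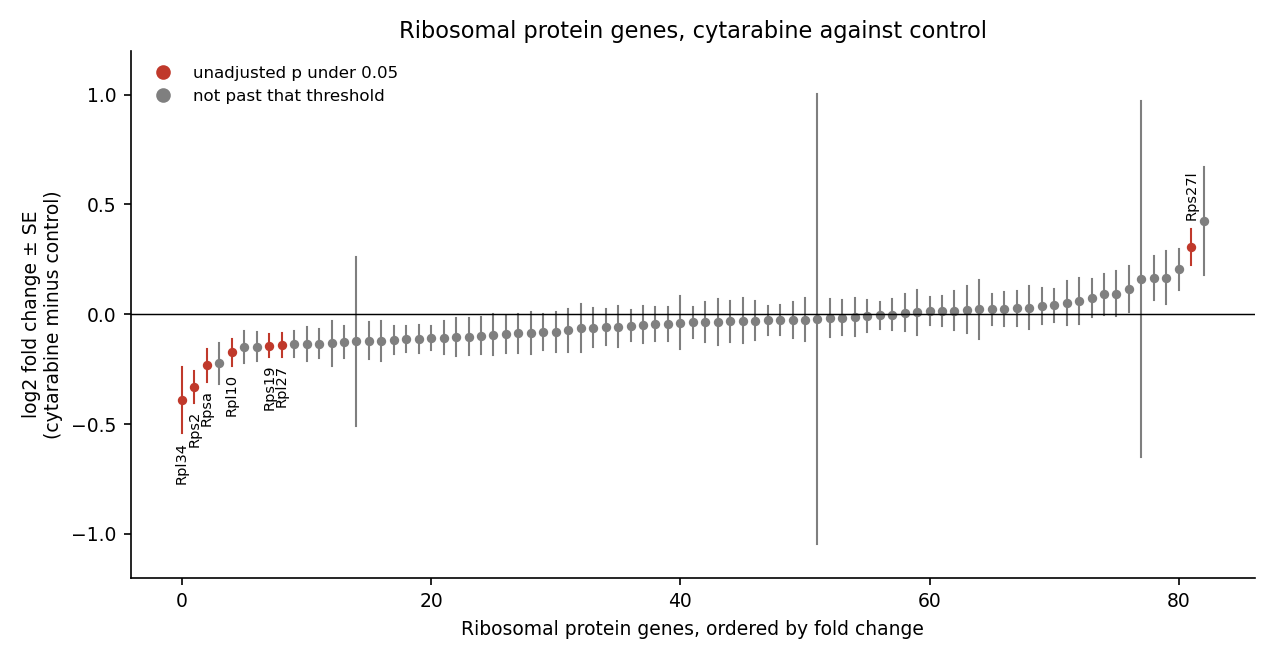
Log2 fold change of the 83 tested members (cytarabine minus control) with its standard error from limma, ordered by size, with the 7 members at an unadjusted p under 0.05 in red. Most values lie within ±0.2, and the 3 longest error bars belong to Rpl26, Rps4y2 and Rpl30.

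Among the small subunit proteins, 3 of 31 (9.68%) were lower, against 9.81% of all tested genes. None was higher (7.6% of all tested genes) and the median change was -0.037. Rps2, which lies at the mRNA entry of the subunit, was at 3447, 3010 and 3129 FPKM in cytarabine 1 to 3 and 3902, 3963 and 4167 FPKM in control 1 to 3. Every cytarabine library was below every control, with a log2 fold change of -0.33 ± 0.073 (SE, n = 3 per group, limma adjusted p = 0.154). Rpsa, a small subunit protein known also as the laminin receptor, was at 1768, 1814 and 1627 FPKM with cytarabine and 1916, 2027 and 2173 FPKM in the controls. Its groups did not overlap either, and the log2 fold change was -0.23 ± 0.075 (limma adjusted p = 0.223). Rps19, the protein whose gene is most often mutated in Diamond-Blackfan anemia, was at 1514, 1512 and 1448 FPKM with cytarabine and 1666, 1643 and 1629 FPKM in the controls. The libraries of each group lay close together and apart from the other group, with a log2 fold change of -0.14 ± 0.051 (limma adjusted p = 0.245). Rps20 was the other way, at 2208, 2711 and 2247 FPKM with cytarabine and 1994, 2091 and 2109 FPKM in the controls, without overlap, but cytarabine 2 stood above the rest and the difference of 0.20 ± 0.094 did not pass the threshold (limma adjusted p = 0.320). Positive values were also found for Rps29 (0.17 ± 0.10), Rps28 (0.11 ± 0.105) and Rps21 (0.09 ± 0.10), whose groups overlapped and which did not pass it either. Rps27 was at 7.77, 6.94 and 6.35 FPKM with cytarabine and 8.42, 8.49 and 8.13 FPKM in the controls, without overlap, a log2 fold change of -0.22 ± 0.093 (limma adjusted p = 0.293) that did not pass.

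Among the large subunit proteins, 3 of 46 (6.52%) were lower, against 9.81% of all tested genes. None was higher (7.6% of all tested genes) and the median change was -0.036. Rpl10, which is among the last proteins to join the large subunit, was at 2443, 2626 and 2411 FPKM with cytarabine and 2807, 2722 and 2898 FPKM in the controls, and its groups did not overlap. Its log2 fold change was -0.17 ± 0.062 (limma adjusted p = 0.246), and 71.1% of its 75-base stretches were shared with other genes. Rpl27 was at 906, 910 and 857 FPKM with cytarabine and 957, 973 and 1012 FPKM in the controls, without overlap, a log2 fold change of -0.14 ± 0.055 (limma adjusted p = 0.280). The positive values nearest to the threshold were those of Rpl39 (0.17 ± 0.12) and Rpl24 (0.09 ± 0.093), whose groups overlapped. The row of Rpl34 gave the most negative value of all members, -0.39 ± 0.15 (limma adjusted p = 0.273). With Rpl34-ps1 added, the log2 fold change was -0.09 ± 0.070 (limma adjusted p = 0.501) and Rpl34 was no longer called. The sums of Rpl26 and Rpl30 with their retrocopies gave -0.04 ± 0.097 and -0.04 ± 0.056. Among the other called members the share of stretches found in other genes was 49.4% for Rps2, 36.7% for Rpl27, 29.8% for Rpsa and 13.4% for Rps19. It was 8.35% for Rpl34 and 8.07% for Rps27l. These shares are of stretches pooled over all annotated protein-coding transcripts, so a low share need not mean few shared reads. Reads of shared stretches cannot be told apart from reads of the copies.

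**Figure D4:**
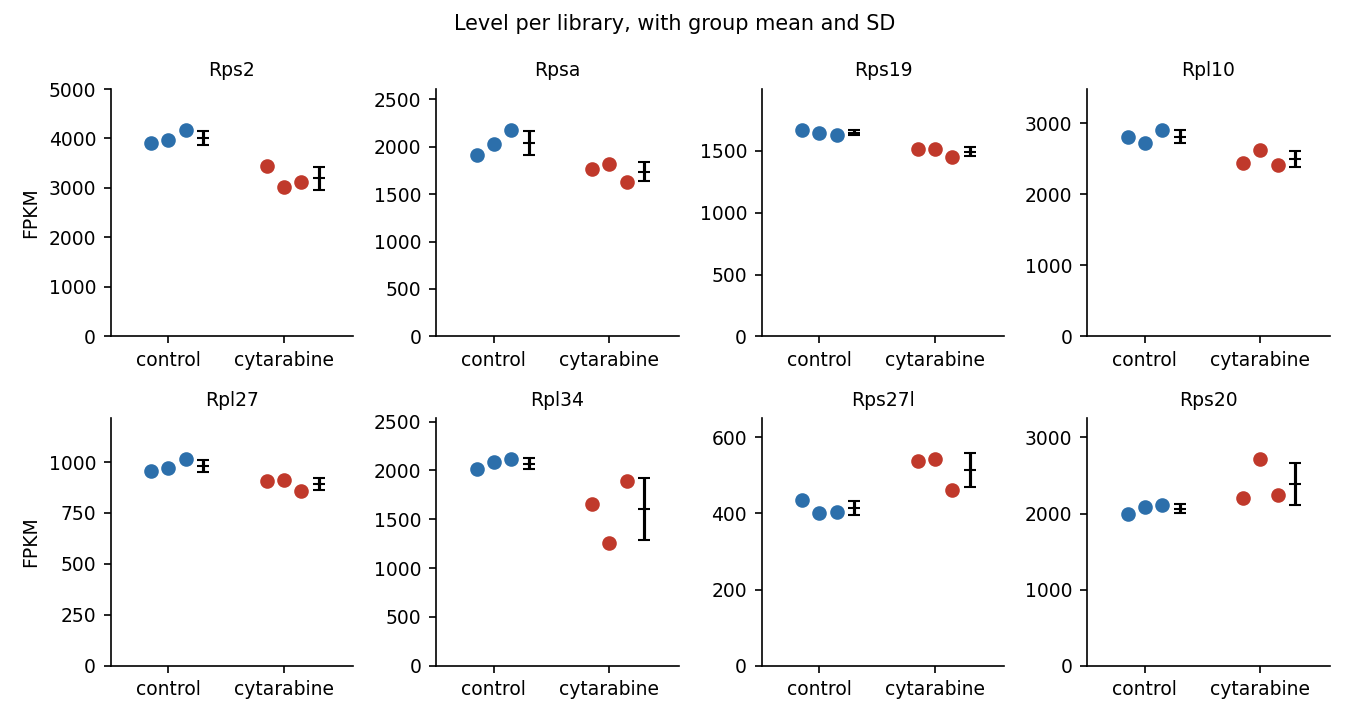
FPKM of the 7 members at an unadjusted p under 0.05 and of Rps20 in each library (points), with the mean and SD of each group of 3 (black). Rps2, Rpsa, Rps19, Rpl10, Rpl27 and Rpl34 lie lower in all cytarabine libraries than in the controls, by margins that are small against their level, and Rps27l and Rps20 lie higher.

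The paralogs and like-named genes were tested for 6 of 9. Rps27l, a paralog of Rps27 known as a p53 target, was the one member called higher. Its row was at 537, 541 and 462 FPKM with cytarabine and 435, 401 and 405 FPKM in the controls. The groups did not overlap and the log2 fold change was 0.31 ± 0.082 (limma adjusted p = 0.183). Rpl22l1, a paralog of Rpl22, had the largest change in size, 0.42 ± 0.25 (limma adjusted p = 0.389), but its libraries overlapped, at 100.4, 167 and 124 FPKM with cytarabine and 122, 94.8 and 74.3 FPKM in the controls. Rpl22 itself was at 218 ± 15.1 FPKM with cytarabine and 215 ± 6.99 FPKM in the controls (SD, n = 3). Rpl36al had a log2 fold change of -0.06, Rpl7l1 of -0.09 and Rps19bp1, a nucleolar regulator named for its binding to RPS19, of -0.06, none past the threshold. Rps4y2 was just inside the 1 FPKM minimum at 1.61 FPKM, next to Rpl26 at 1.63 FPKM, and just outside it were Rpl10l at 0.22, Rpl3l at 0.13 and Rpl39l at 0.02 FPKM, paralogs that are known for testis or muscle. Rps4y2 is annotated as Rps4l, a transcribed processed pseudogene, and stayed among the members because its symbol carries no -ps.

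The functional neighbourhoods of the ribosome were read in the same fit. None of the 4 stalk proteins was called: the log2 fold change was 0.02 for Rplp0, 0.01 for Rplp1, -0.02 for Rplp2 and -0.01 for Rpl12, each with an SE of at most 0.104. Of the 5S RNP, which carries 5S rRNA into the large subunit and, when ribosome assembly fails, binds MDM2, neither protein was called. Rpl5 was at 812, 851 and 784 FPKM with cytarabine and 910, 862 and 918 FPKM in the controls, without overlap, a log2 fold change of -0.14 ± 0.058 (limma adjusted p = 0.299), and Rpl11 differed by -0.05 ± 0.070 (limma adjusted p = 0.681). None of 9 proteins that line the exit tunnel was called, their median change being -0.024. Of 9 tested proteins of the mRNA channel, 2 (22.2%) were lower, Rps2 and Rpsa. Of 19 genes mutated in Diamond-Blackfan anemia, 2 (10.5%) were lower, Rps19 and Rpl27. Over all tested genes 9.81% were lower. Some ribosomal proteins stand outside the naming rule. Rack1, listed as Gnb2l1, a scaffold on the head of the small subunit, was at 1549, 1554 and 1448 FPKM with cytarabine and 1788, 1732 and 1895 FPKM in the controls, without overlap, a log2 fold change of -0.25 ± 0.063 (limma adjusted p = 0.173). Fau, which encodes RPS30 fused to a ubiquitin-like sequence, had a log2 fold change of 0.09 and was not called.

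The small shift depended on which library was read. Among the 72 members of the plateau, 40 had their highest value in cytarabine 2 and 28 in control 3, whereas 38 had their lowest in cytarabine 3 and 20 in cytarabine 1. The median deviation from a gene's mean over the 6 libraries was -0.064, 0.11 and -0.11 on the log2 scale in cytarabine 1 to 3 and -0.008, -0.003 and 0.081 in control 1 to 3. The cytarabine libraries spanned the whole range of the family. Without cytarabine 2, 18 members were lower and 1 was higher, against 5.83% and 5.29% of all tested genes, 43 of 83 lay below the controls where 15.5% of all genes did, and the median change was -0.10. Without cytarabine 1 there were 3 lower members (17.4% of all tested genes), and without cytarabine 3 there were 2 (5.37%). Without control 1 there were 2 (9.59%), without control 2 there was 1 (5.64%) and without control 3 there was 1 (4.92%).

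Within the 3 libraries low in colon markers (cytarabine 1, control 2 and control 3), the median change of the members was -0.10, and within the 3 libraries high in them (cytarabine 2, cytarabine 3 and control 1) it was 0.01. A fit with colon and heart marker scores as covariates gave a median of -0.25 with 12 members lower and none higher, against 2.23% and 2.4% of all tested genes. With both scores beside the group term, few of the 6 libraries are left to estimate the spread. All 8 tested colon markers had a positive and all 8 heart markers a negative change, though none was called. The scores and the group can therefore not be fully told apart.

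The genes that make and use ribosomes, and those that control them, were read from 6 lists. Over these lists with 147 tested genes, 31 (21.1%) were lower and none higher, against 9.81% and 7.6% of all tested genes, the median change was -0.14 and 121 had a negative value. Whether these lists differ from the ribosomal proteins was not tested. Of 17 other TOP mRNAs, 6 were lower and the median change was -0.056, the nearest of the 6 list medians to those of the ribosomal proteins. Eef1g, a subunit of the elongation factor that reloads eEF1A, was at 811, 713 and 729 FPKM with cytarabine and 983, 922 and 982 FPKM in the controls, a log2 fold change of -0.36 ± 0.070 (limma adjusted p = 0.147). Npm1, the nucleolar chaperone nucleophosmin, was at 1183, 936 and 935 FPKM with cytarabine and 1479, 1379 and 1513 FPKM in the controls, a log2 fold change of -0.52 ± 0.11 (limma adjusted p = 0.151). Eef1d, of the same elongation complex as Eef1g, differed by -0.34. All the cytarabine libraries lay below the controls for these genes.

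Of 30 initiation factors, 7 were lower, among them Eif4g2 (-0.29), Eif1b (-0.36) and Eif1 (-0.18). Of 61 ribosome biogenesis factors, 11 were lower, among them the rRNA acetyltransferase Nat10 (-0.51), the stalk assembly factor Mrto4 (-0.36) and the rRNA methyltransferase fibrillarin, Fbl (-0.48). Of 14 genes of RNA polymerase I, 1 was lower, Polr1b (-0.42). Of 17 genes of mTORC1, LARP1 and MYC, 5 were lower: Eif4ebp1 (-0.61), Larp1 (-0.52), Mtor (-0.30), Tsc1 (-0.30) and Myc (-0.56). Larp1, which binds TOP mRNAs, was at 60.6, 44.3 and 45.4 FPKM with cytarabine and 67.2, 69.6 and 78.6 FPKM in the controls, and Myc was at 33.4, 27.1 and 20.9 FPKM with cytarabine and 36.5, 35.6 and 48.5 FPKM in the controls, without overlap for either. Of 8 ribosome rescue factors, 1 was lower, Zfp598 (-0.45), the ubiquitin ligase that marks collided ribosomes. The share lower was 23.3% for initiation factors, 18.0% for biogenesis factors and 7.14% for RNA polymerase I. It was 29.4% for the mTORC1, LARP1 and MYC list and 12.5% for ribosome rescue, against 9.81% of all tested genes. The values in parentheses after gene names are log2 fold changes, and the adjusted p of the 31 lower genes was between 0.147 and 0.279 in limma. The number of lower genes in the 6 lists was 68 without cytarabine 1 (17.4% of all tested genes), 18 without cytarabine 2 (5.83%) and 14 without cytarabine 3 (5.37%). The number was 25 without control 1 (9.59%), 19 without control 2 (5.64%) and 13 without control 3 (4.92%). It was 5 with the colon and heart marker scores as covariates, where 2.23% of all tested genes were lower.

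**Figure D5:**
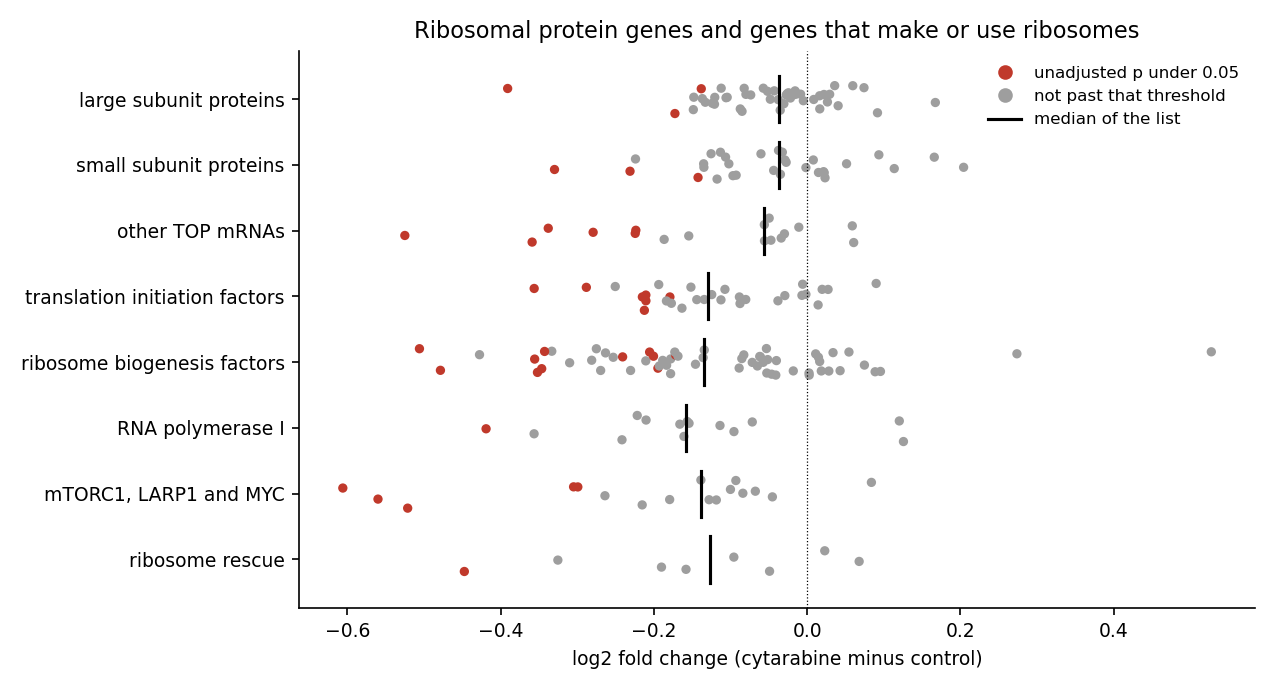
Log2 fold change (cytarabine minus control) of each tested gene in the large and small subunit lists and in 6 lists of genes that make or use ribosomes (points), with the list median (bar) and genes at an unadjusted p under 0.05 in red. Ribosomal proteins cluster near 0, with medians of -0.036 and -0.037, and the 147 genes of the other lists spread wider with a joint median of -0.14. The medians of these 6 lists ran from -0.056 for the other TOP mRNAs to -0.16 for RNA polymerase I.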

How the data were processed

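The authors mapped 75-base single-end reads of stranded mRNA libraries to mm10 with TopHat 2.0.13, Bowtie2 2.2.3 and SAMtools 0.1.19 and deposited gene-level FPKM computed with Cufflinks 2.2.1, so length and library size were divided out and reads with several matches may have been split between copies. The annotation and Cufflinks options are not given in the sources used here. Depth was inferred from FPKM steps of 2745 genes with 1 transcript, assuming fragments of 200 bases; 73.9% to 79.0% of low values lay within 0.1 of a whole read, so no count test was run.

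The test was limma 3.58.1 (R 4.3.3) on log2(FPKM + 1) for genes averaging 1 FPKM or more (eBayes with trend, two-sided, Benjamini-Hochberg over all tested genes). Fold changes on this scale understate those of low genes. The fit was checked on simulated data. Members and gene lists were chosen with earlier results of these data known. Genes named with values are the 8 higher and 8 lower members with the smallest p, the 6 most and 6 least abundant, the stalk, 5S RNP and paralog lists, and up to 3 per direction in other lists; Tsc1, Myc, Rpl22, the pseudogenes, and the sequence shown for Rpl7a were chosen after values were seen. P-values measure the spread between mice, 1 library each. Shared stretches were counted in GENCODE M21 transcripts and start windows come from RefSeq, both on GRCm38. Some single genes are not reported here.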

Additional observations from a re-analysis of the deposited data

How the results depend on the processing

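No member passed an adjusted p of 0.05 under any of 20 alternatives. The fit within 3 libraries, with 1 library in an arm, assumes that the lone library varies like the other group. The shares of all genes called move with the settings too, and stand in parentheses in the same order. The number of higher members, 1 as reported (7.6%), was 2 with FPKM rescaled to an equal sum, 2 with quantile normalization, 4 with rescaling to an equal ribosomal protein sum, 0 with marker covariates, and 2 and 0 within the libraries low and high in colon markers (8.72%, 6.15%, 8.69%, 2.4%, 6.53% and 15.01%). The number of lower members, 6 as reported (9.81%), was 0 with no filter on low values, 1 with quantile normalization, 3 with the ribosomal protein sum, 3 with eBayes without trend, 12 with covariates, and 2 and 0 within the libraries low and high in colon markers (6.62%, 10.4%, 4.72%, 8.83%, 2.23%, 4.67% and 9.05%). Same-numbered libraries 1 to 3 deviated with r = -0.71, -0.25 and -0.59 over all tested genes and -0.79, 0.65 and -0.76 over the members, so the numbers were not taken to pair them. With the replicate block, 1 member was higher and 1 lower (4.09% and 4.4%). Leaving out each library gave 1 to 18 lower members (4.92% to 17.4%), 1 to 1 higher members and 17 to 45 members without overlap. The members without overlap were 22.9%, 54.2% and 21.7% without cytarabine 1 to 3, against 55.8%, 29.6% and 29.3% of all genes. The median was -0.10 to -0.0055 and, for the member share of summed FPKM, the difference was -1.21 to 0.06 points. Within the libraries low and high in colon markers 72 and 32 members did not overlap, against 74.8% and 82.4% of all genes. The median was -0.25 with covariates, 0.01 with the ribosomal protein sum, which sets it near 0 by construction, and 0.01 within the libraries high in colon markers. The 31 lower genes of the 6 other lists became 14 with the ribosomal protein sum, 12 with the replicate block, 5 with covariates, 8 within the libraries low in colon markers, and 13 to 68 with a library left out. Rpl34 reversed to 0.13 with covariates and Rpl30 to 0.61 within the libraries low in colon markers; the cause was not tested. Of the 7 called members, Rps27l kept an unadjusted p under 0.05 in 18 of 20 alternatives, Rps2 in 15, Rpsa in 13, Rpl10 in 9, Rps19 and Rpl34 in 7 each and Rpl27 in 4. Another pseudocount, a 5 FPKM minimum, median-of-ratios factors, a robust trend and added retrocopies kept the counts of higher, lower and separated members and of lower genes over the 6 lists together within 1.5 times. With 3 mice per group, a typical member needed a change of about 0.21 on the log2 scale to reach an unadjusted p of 0.05.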

Other observations

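Some pseudogene rows left out by the naming rule varied between libraries far more than their parent genes; they were chosen after their values were seen. Rps19-ps3 was at 1.05, 1.93 and 30.1 FPKM in cytarabine 1 to 3 and 115, 27.3 and 3.17 FPKM in control 1 to 3, while Rps19 stayed between 1448 and 1666 FPKM. Rpl31-ps12 was at 0.28, 0 and 12.2 FPKM with cytarabine and 51.7, 11.1 and 2.19 FPKM in the controls, and Rps15a-ps4 at 0.16, 0.86 and 13.4 FPKM and 38.9, 9.86 and 1.41 FPKM. All 3 were highest in control 1, followed by cytarabine 3, control 2 and control 3, which is also the order of the summed heart markers, at 3022, 789, 628 and 61.5 FPKM in those libraries. In cytarabine 1 and 2 the heart sum was 7.95 and 22.5 FPKM. Rps19-ps3 and Rps15a-ps4 were also lowest in cytarabine 1, but Rpl31-ps12 was lowest in cytarabine 2. These rows were picked from the 6 left out, and the source of their reads was not tested. Rps4y2 was at 0.10, 1.15 and 3.56 FPKM with cytarabine and 4.39, 0.44 and 0 FPKM in the controls.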
